A study of Rattus norvegicus with 15 samples.

Results

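The transmitter genes of amacrine cells, the inhibitory interneurons of the inner retina, were followed in rat retinas kept in darkness or exposed to light. They are 10 genes: *Gad1*, *Gad2*, *Slc32a1*, *Slc6a9*, *Chat*, *Slc18a3*, *Calb2*, *Npy*, *Sst* and *Tac1*. The array annotation gave 13 probe sets whose only symbol is one of these genes, out of 31099 on the array, which carry 14218 symbols in all. *Gad1* had 2 probe sets and *Slc6a9* had 3, and these are reported separately by their brightness. RNA came from adult male Long Evans rats, with no genetic change named for any group, that spent the night in darkness. Retinas were taken in darkness at 7 h (0 ZT dark, the control), 10 h (3 ZT dark) and 13 h (6 ZT dark), where ZT counts hours after the usual onset of light. Light of 1000 lux was given for 3 hours until 10 h (3 ZT light) or for 6 hours until 13 h (6 ZT light), by the titles of the samples, while another label of the 6 ZT light samples gives 3 hours. Each of the 5 conditions had 3 replicas, numbered 1 to 3, and the number of animals behind an array is not given in the sources used here. All values are on the log2 scale of the authors, so that a difference of 1 is a doubling.

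Amacrine cells release GABA or glycine onto bipolar cells, ganglion cells and each other, and many subtypes add a further transmitter or a peptide. GABA is made from glutamate by the glutamate decarboxylases of *Gad1* and *Gad2*, and the vesicular carrier of *Slc32a1* loads both GABA and glycine into synaptic vesicles. Glycinergic amacrine cells take glycine back up through the transporter of *Slc6a9*. Starburst amacrine cells, known for their part in direction selectivity, make acetylcholine with the choline acetyltransferase of *Chat* and load it with the vesicular carrier of *Slc18a3*. *Calb2* encodes calretinin, a calcium-binding protein of several amacrine and ganglion cell types, and *Npy*, *Sst* and *Tac1* encode the precursors of neuropeptide Y, somatostatin and substance P. Several of these genes are also active in horizontal or ganglion cells, and in whole retina fewer cells of a type and less RNA per cell cannot be told apart.

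The acetylcholine genes share a locus, in which *Slc18a3* lies within an intron of *Chat*. Their RefSeq starts (assembly GRCr8) are 602 bases apart on the minus strand of chromosome 16, and the 120 bases before each start are shown because this pair is compared below in its response to light. *Tac1* on chromosome 4 is shown beside them because its promoter and that of *Chat* hold CACGTG, the E-box that clock factors are known to bind, in capitals. The 30 bases around the start of *Sst* on chromosome 11 are shown for TGACGTCA, the cyclic AMP response element for which this gene is known, also in capitals.
Chat, chr16:7723417-7723536, minus strand: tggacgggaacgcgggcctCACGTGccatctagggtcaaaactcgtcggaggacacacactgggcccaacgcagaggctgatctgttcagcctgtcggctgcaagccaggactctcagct
Slc18a3, chr16:7722815-7722934, minus strand: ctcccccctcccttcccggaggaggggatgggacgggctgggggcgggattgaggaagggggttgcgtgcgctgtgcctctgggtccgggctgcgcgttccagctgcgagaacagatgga
Tac1, chr4:36645463-36645582, plus strand: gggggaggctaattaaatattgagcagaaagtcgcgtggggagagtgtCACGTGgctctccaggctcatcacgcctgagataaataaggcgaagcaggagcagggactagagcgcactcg
Sst, chr11:90461537-90461566, plus strand: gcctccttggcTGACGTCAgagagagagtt
Promoter sequence, from 250 bases before to 50 bases after the start, was matched for 9 of the 10 genes by symbol. The E-box was found in 2 of them and in 6.42% of 33469 rat promoters of the same length, at bases -101 to -96 in *Chat* and -72 to -67 in *Tac1*. The response element was found in *Sst* alone, at bases 2 to 9 after the RefSeq start, and in 1.83% of all promoters. The AP-1 site TGACTCA was in none of the 9 and in 4.63% of all. Each motif was searched on both strands, and a match says only that these letters are in the window.

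The genes spanned a wide range of signal. *Calb2* was the brightest, with a mean of 14.24 over the 15 arrays, above 99.4% of the probe sets, and the brighter *Gad1* probe set followed at 13.56. *Gad2* was the dimmest at 6.71, above 20.5% of the probe sets. The others had means from 8.47 (*Slc18a3*) to 12.17 (the brightest *Slc6a9* probe set). This order is one of signal and not of transcript number, since each probe set binds with its own strength. Rod markers, which define the tissue, stood at means of 14.73 to 15.39 for 6 of 6 genes measured, and 14 of 18 other amacrine cell genes measured were above the median level of the array, as were 5 of 9 genes of GABA and glycine handling but only 4 of 14 of acetylcholine signalling. Medians of the arrays lay at 8.28 to 8.32 in replica 1, 8.58 to 8.68 in replica 2 and 8.74 to 8.80 in replica 3, so that conditions were compared within a replica number.

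**Figure D1:**
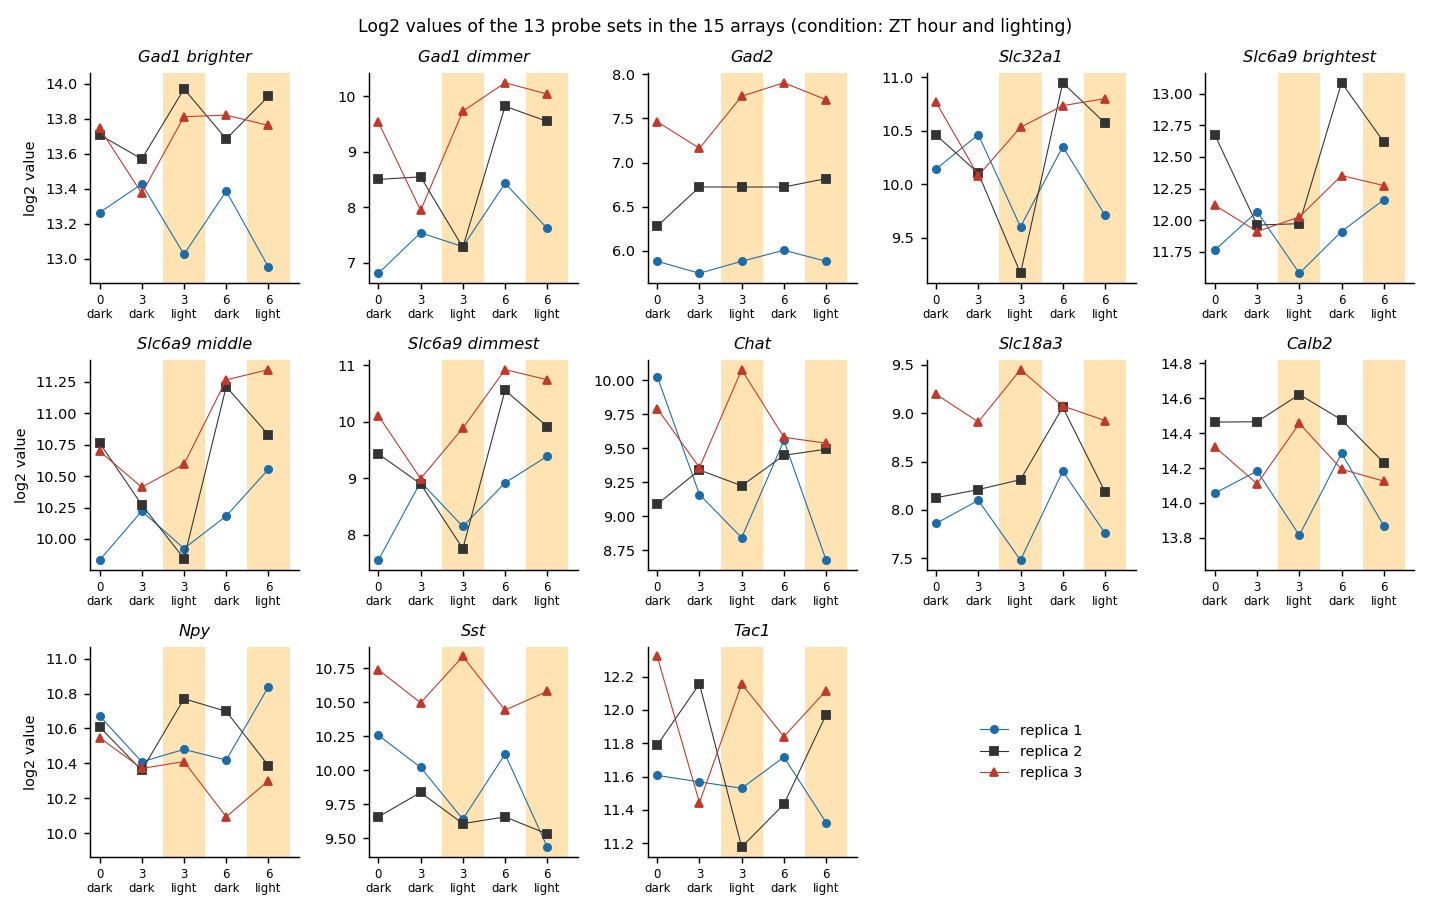
Log2 value (vertical axes, each panel with its own range) of the 13 probe sets in the 5 conditions (horizontal axes: ZT hour and lighting), with 1 point per array and lines joining arrays of a replica number; shaded columns mark light. The 6 ZT dark condition had the highest mean in 8 of the 13 panels, and the share of all probe sets for which this holds was not determined.

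None of the 13 probe sets passed the test between light and darkness at either hour. At 3 ZT, 7 were higher and 6 lower in light, with a median difference of 0.01, and at 6 ZT, 3 were higher and 10 lower, with a median of -0.12, where the medians over all probe sets were 0.00 and -0.01. At an adjusted p under 0.05 (limma, Benjamini-Hochberg over 31042 probe sets) 0 of 13 passed at 3 ZT, against 0.00322% of all probe sets, and 0 of 13 at 6 ZT, against 0% of all. At an unadjusted p under 0.05, 0 of 13 were found at 3 ZT, where 4.59% of all probe sets were, and 1 of 13 at 6 ZT, where 8.53% were. The share of these genes was thus at or below that of the whole array. The 95% confidence intervals at 3 ZT reached from -1.37 (the dimmest *Slc6a9* probe set) to 1.15 (the dimmer *Gad1* probe set) so that a step of 1 log2 unit lay within both of these intervals.

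**Figure D2:**
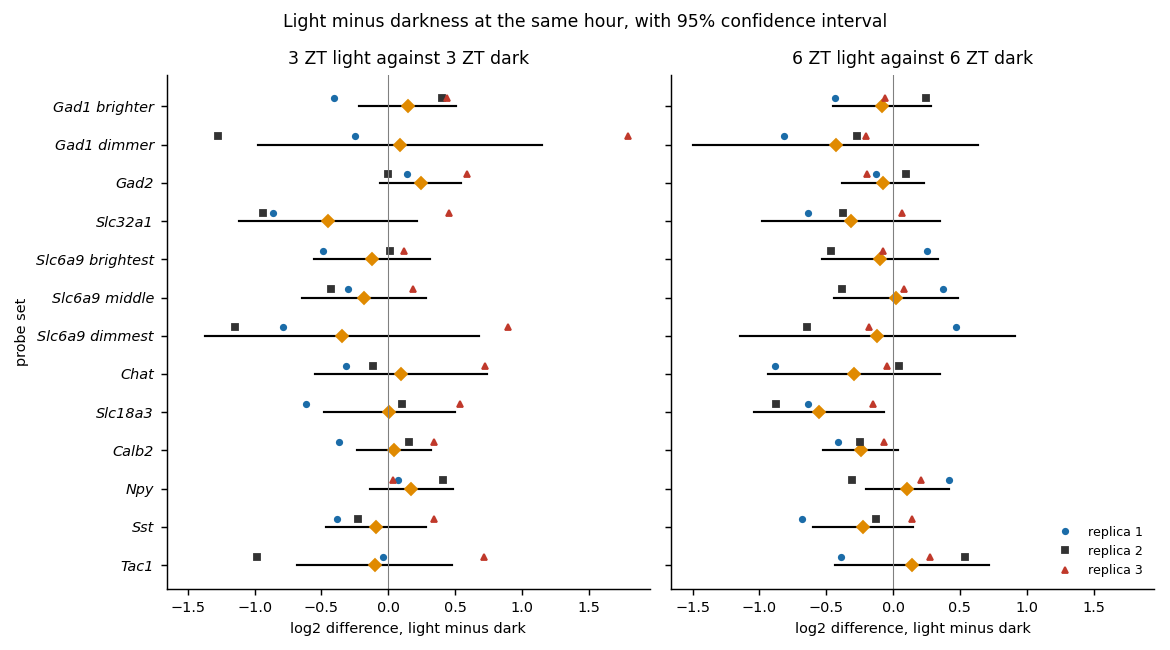
Log2 difference between light and darkness at the same hour (horizontal axes) for the 13 probe sets, at 3 ZT on the left and 6 ZT on the right. Diamonds are limma estimates with their 95% confidence interval (15 arrays), and small symbols are the differences of replicas 1, 2 and 3; at 6 ZT only the interval of *Slc18a3* (-1.04 to -0.07) does not cross 0.

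For GABA synthesis, the brighter *Gad1* probe set varied little. It stood at 13.43, 13.57 and 13.37 in 3 ZT dark and at 13.02, 13.97 and 13.81 in 3 ZT light (replicas 1, 2 and 3). In 6 ZT dark it was 13.39, 13.69 and 13.82, and in 6 ZT light 12.95, 13.93 and 13.76. Light was below darkness in replica 1 at both hours and above it in replica 2 at both, and the groups overlapped. The differences were 0.15 at 3 ZT (95% confidence interval -0.22 to 0.51) and -0.08 at 6 ZT (-0.45 to 0.28), so that a step of 1 log2 unit lay outside both intervals.

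The dimmer *Gad1* probe set spread far more. It was 7.54, 8.55 and 7.94 in 3 ZT dark and 7.29, 7.28 and 9.73 in 3 ZT light. Replica 3 was higher in light by 1.79, replica 2 was at -1.27 and replica 1 at -0.25, so that the replicas went against each other. The estimate was 0.09 with an SE of 0.48, against an SE of 0.16 for the brighter probe set, and it was 0.67 (unadjusted p = 0.141, limma) without the arrays 0 ZT dark replica 1 and 3 ZT light replica 2. At 6 ZT light was lower in 3 of 3 replicas, at -0.81, -0.27 and -0.20, and the estimate was -0.43 (95% confidence interval -1.49 to 0.63, adjusted p = 0.795, limma). After the mean of each replica number was subtracted, both *Gad1* probe sets correlated at r = 0.31 over the 15 arrays, which share the replica numbers.

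*Gad2* was dim and often unmoving. Values of arrays of a replica number were exactly equal in 6 of its 30 pairs, as in replica 2, which read 6.72 in 3 ZT dark, 3 ZT light and 6 ZT dark, while no other of the 13 probe sets had an equal pair. The estimate of light against darkness at 3 ZT was 0.24 (SE 0.14, adjusted p = 0.895, limma). Light was higher by 0.14 in replica 1 and by 0.59 in replica 3, while replica 2 read the same in both conditions.

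For vesicle loading, *Slc32a1* stood at 10.46, 10.10 and 10.08 in 3 ZT dark and at 9.60, 9.17 and 10.53 in 3 ZT light. It was lower in light in replicas 1 and 2 and higher in replica 3, with an estimate of -0.45 (adjusted p = 0.895, limma). The control, 0 ZT dark, read 10.14, 10.46 and 10.77, above 3 ZT light in each replica, and the ranges overlapped. The difference of 3 ZT light from 0 ZT dark was -0.69 (SE 0.30, unadjusted p = 0.0438, adjusted p = 0.649, limma), the only one of the 13 at an unadjusted p under 0.05 in that comparison, where 7.68% of all probe sets were. Without the arrays 0 ZT dark replica 1 and 3 ZT light replica 2, which are described below, it was -0.35 (unadjusted p = 0.329, limma), and the 3 ZT difference between light and darkness was -0.10.

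For glycine uptake, the 3 *Slc6a9* probe sets moved together. Their replica-centred values correlated at r = 0.86 to 0.96 over the 15 arrays. The condition means ran in nearly 1 order in all of them, with 3 ZT light lowest and the 6 ZT conditions highest, although steps between neighbouring conditions were mostly within their spread. Light against darkness gave -0.12, -0.18 and -0.35 at 3 ZT and -0.10, 0.02 and -0.12 at 6 ZT for the brightest, middle and dimmest probe set. Without the arrays 0 ZT dark replica 1 and 3 ZT light replica 2, the 3 ZT values were -0.02, 0.01 and 0.11, so that the direction of the middle and the dimmest turned. The dimmest had a range of condition means of 1.54, against 0.59 for the brightest, and the middle one lay between them at 0.79.

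For acetylcholine, *Slc18a3* was lower in light at 6 ZT in 3 of 3 replicas. It stood at 8.40, 9.06 and 9.07 in 6 ZT dark and at 7.76, 8.19 and 8.92 in 6 ZT light. Each replica was lower in light, by a small step in replica 3, while the ranges of the groups overlapped. The difference was -0.55 (SE 0.22, 95% confidence interval -1.04 to -0.07, unadjusted p = 0.0294, adjusted p = 0.553, limma), so that it did not pass over the array. At 3 ZT the values were 8.10, 8.21 and 8.91 in darkness and 7.48, 8.31 and 9.45 in light, with a difference of 0.01. The difference between the light effects at 3 and 6 ZT was -0.56 (unadjusted p = 0.0993, adjusted p = 0.776, limma) and did not pass either. In that comparison 0 of 13 were at an unadjusted p under 0.05, where 5.95% of all probe sets were. Against 0 ZT dark, *Slc18a3* was at -0.10 in 6 ZT light (unadjusted p = 0.649, limma). In 6 ZT dark it was at 0.45 (unadjusted p = 0.0662, limma), higher in 2 of 3 replicas. The *Actb* difference, an RNA quality measure described below, was 1.18, 1.22 and 0.945 in 6 ZT light. In 6 ZT dark it was lower, at 1.09, 0.97 and 0.71.

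*Chat*, its neighbour in the locus, had an estimate nearer to 0 at 6 ZT. It was 9.56, 9.45 and 9.58 in 6 ZT dark and 8.68, 9.49 and 9.54 in 6 ZT light. Replica 1 alone was clearly lower in light, and the other pairs were within 0.05 of each other. The difference was -0.29 (95% confidence interval -0.94 to 0.35), an interval that holds the estimate of *Slc18a3*. The replica-centred values of both genes correlated at r = 0.49 and rho = 0.64, and whether their light effects differ was not tested.

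*Calb2* kept within a narrow band. It was 14.28, 14.48 and 14.19 in 6 ZT dark and 13.87, 14.23 and 14.12 in 6 ZT light. Light was lower in 3 of 3 replicas, by 0.07 to 0.42, and the ranges overlapped. The difference of -0.24 had a 95% confidence interval of -0.52 to 0.04 (adjusted p = 0.605, limma). At 3 ZT it was 0.04.

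Among the peptides, *Npy* was 10.41, 10.36 and 10.37 in 3 ZT dark and 10.48, 10.77 and 10.41 in 3 ZT light. It was higher in light in 3 of 3 replicas, by 0.04 and 0.07 in replicas 3 and 1, and the groups met at 10.41. The estimate of 0.17 (95% confidence interval -0.14 to 0.48) had an adjusted p of 0.895 (limma). At 6 ZT its replicas went in both directions. *Sst* gave -0.09 at 3 ZT and -0.22 at 6 ZT, and its lowest condition mean was that of 6 ZT light. *Sst* values ran from 9.44 to 10.26 in replica 1, from 9.53 to 9.84 in replica 2 and from 10.44 to 10.84 in replica 3. Replica 3 was thus above the others, while the range of replica 1 held that of replica 2. *Tac1* gave -0.10 at 3 ZT and 0.14 at 6 ZT, and in replica 2 it was 12.16 in 3 ZT dark against 11.18 in 3 ZT light, a step in the opposite direction to replica 3, at 11.44 and 12.16.

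The step from 0 to 6 ZT in darkness gave the estimates furthest from 0, though none passed here either. From 0 to 3 ZT in darkness, 11 of 13 were lower (median -0.13, lowest unadjusted p = 0.132, limma), with 0 at an unadjusted p under 0.05 against 1.25% of all probe sets. From 0 to 6 ZT in darkness, 9 of 13 were higher (median 0.22, against 0.01 over all probe sets), and 3 were at an unadjusted p under 0.05, where 8.73% of all were. At an adjusted p under 0.05, 0 of 13 passed in both, against 0% of all, and the lowest adjusted p was 0.540. These comparisons share the 0 ZT dark arrays. They share them also with the comparisons of light against 0 ZT dark, where 1 of 13 was at an unadjusted p under 0.05 at 6 ZT, against 6.18% of all.

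**Figure D3:**
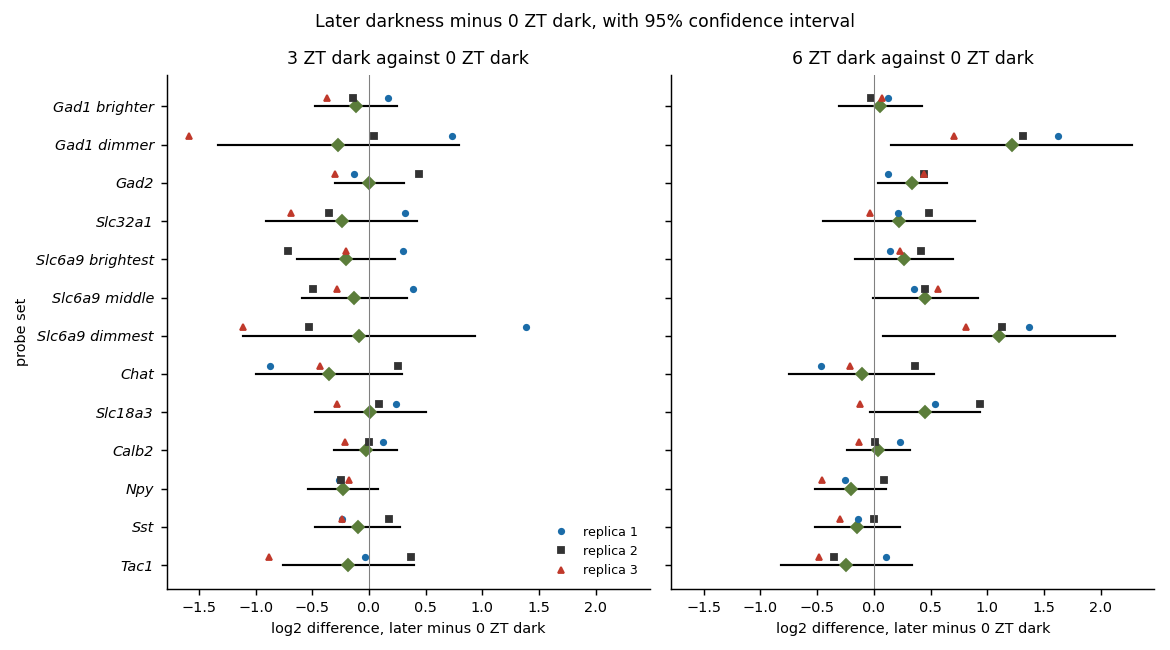
Log2 difference of 3 ZT dark (left) and 6 ZT dark (right) from 0 ZT dark (horizontal axes) for the 13 probe sets, with diamonds for limma estimates, bars for 95% confidence intervals and small symbols for replicas 1, 2 and 3. At 6 ZT the estimates of the dimmer *Gad1* (1.22) and dimmest *Slc6a9* (1.10) probe sets are the furthest from 0, and at 3 ZT every interval crosses 0.

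The dimmer *Gad1* probe set was 6.81, 8.50 and 9.53 in 0 ZT dark and 8.43, 9.82 and 10.25 in 6 ZT dark. It was higher in each replica, and the ranges overlapped because the replica numbers differ. The difference was 1.22 (SE 0.48, unadjusted p = 0.0287, adjusted p = 0.540, limma). The brighter *Gad1* probe set differed by 0.06 (95% confidence interval -0.31 to 0.42) in the same comparison. That of *Gad2*, the other decarboxylase, was 0.34 (unadjusted p = 0.0332, adjusted p = 0.546, limma), higher in 3 of 3 replicas.

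The dimmest *Slc6a9* probe set was 7.55, 9.43 and 10.11 in 0 ZT dark and 8.92, 10.56 and 10.92 in 6 ZT dark. It was higher in each replica, and the difference was 1.10 (SE 0.46, unadjusted p = 0.0373, adjusted p = 0.554, limma). The middle probe set gave 0.46 (adjusted p = 0.577, limma) and the brightest 0.26 (adjusted p = 0.710, limma), each higher in 3 of 3 replicas. In 6 ZT light the middle probe set was 0.48 above 0 ZT dark (unadjusted p = 0.0442, adjusted p = 0.802, limma).

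By the rule of the methods, which takes a probe set as higher when its ratio to the control of the same replica number is above 1.6 in all 3 replicas and lower when it is below 0.7, 2 of the 13 were higher in 6 ZT dark, where 0.0644% of all probe sets were. These were the dimmer *Gad1* probe set, with a mean ratio of 2.40 ± 0.72 (SD, n = 3), and the dimmest *Slc6a9* probe set, with 2.18 ± 0.41. None was lower there, where 0.287% of all were. None of the 13 passed in 3 ZT light (0.058% of all higher and 0.0741% lower), in 6 ZT light (0.0709% higher and 0.0709% lower) or in 3 ZT dark (0% higher and 0.0161% lower). The rule has no test. With ratios to the mean of the 3 controls 0 of 13 passed in 6 ZT dark, but such ratios also carry the differences in level between replica numbers.

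The probe sets with wide spreads moved with a measure of RNA quality. The array carries probe sets near both ends of *Actb*, and the log2 value at its 3′ end minus that at its 5′ end grows as signal is lost toward the 5′ end. This *Actb* difference was largest at 2.40 in replica 2 of 3 ZT light and at 2.10 in replica 1 of 0 ZT dark, and the remaining 13 arrays had 0.71 to 1.37. Within each replica number it was lowest in 6 ZT dark, at 1.09, 0.97 and 0.71 in replicas 1, 2 and 3. The same difference for *Gapdh* was also largest in those 2 arrays, at 0.362 and 0.261, but did not repeat the low place of 6 ZT dark. It was lowest in 3 ZT dark in replicas 1 and 2 (0.005 and 0.07) and in 6 ZT light in replica 3 (0.022). In 6 ZT dark it was 0.016, 0.134 and 0.03. The dimmer *Gad1* probe set correlated with it at r = -0.80 (permutation p = 7.9e-04, adjusted over the 13 relations 0.00514) and rho = -0.71 (permutation p = 0.00369, adjusted 0.0307), both after the mean of each replica number was subtracted (n = 15). The dimmest *Slc6a9* probe set had r = -0.83 (permutation p = 1e-04, adjusted 0.0013) and rho = -0.70 (permutation p = 0.00472, adjusted 0.0307). Without the 2 arrays farthest from the median of the *Actb* difference, r was -0.82 and -0.69. Each replica number holds only 5 arrays, too few for an r of its own.

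Other probe sets of the same genes followed the measure less or not at all. The brighter *Gad1* probe set had r = 0.17 (permutation p = 0.566) and rho = 0.15 (permutation p = 0.584), with r = -0.41 without those 2 arrays. The middle *Slc6a9* probe set had r = -0.70 (permutation p = 0.00161, adjusted 0.00698) and rho = -0.62 (permutation p = 0.015), with -0.52 without those arrays. The brightest had r = -0.59 (permutation p = 0.0219, adjusted 0.0569) and rho = -0.65 (permutation p = 0.0106), with -0.48 without them. *Slc32a1* had r = -0.65 (permutation p = 0.0119, adjusted 0.0388) but rho = -0.45 (permutation p = 0.0946, adjusted 0.246), with -0.52 without them. The remaining 7 had r from -0.45 to 0.34, with no adjusted p under 0.05. Without those 2 arrays they ran from -0.67 (*Gad2*) and -0.59 (*Slc18a3*) to -0.13 (*Sst*), so that r was then negative for all 13 probe sets. With all 15 arrays, the median r over all probe sets was 0.05, and 5.25% lay at or below that of the dimmer *Gad1* probe set. The median over all probe sets without those 2 arrays was not determined, so that the negative values of the 13 have no background beside them. Without both arrays of the largest *Actb* difference, the step from 0 to 6 ZT in darkness was 1.03 for the dimmer *Gad1* probe set (unadjusted p = 0.0357, limma), 0.71 for the dimmest *Slc6a9* probe set (unadjusted p = 0.0941) and 0.45 for *Gad2* (unadjusted p = 0.0183). Among the arrays left in that fit, 6 ZT dark still had the lowest *Actb* difference of each replica number. Beyond these values the part of RNA quality in the differences was not tested.

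**Figure D4:**
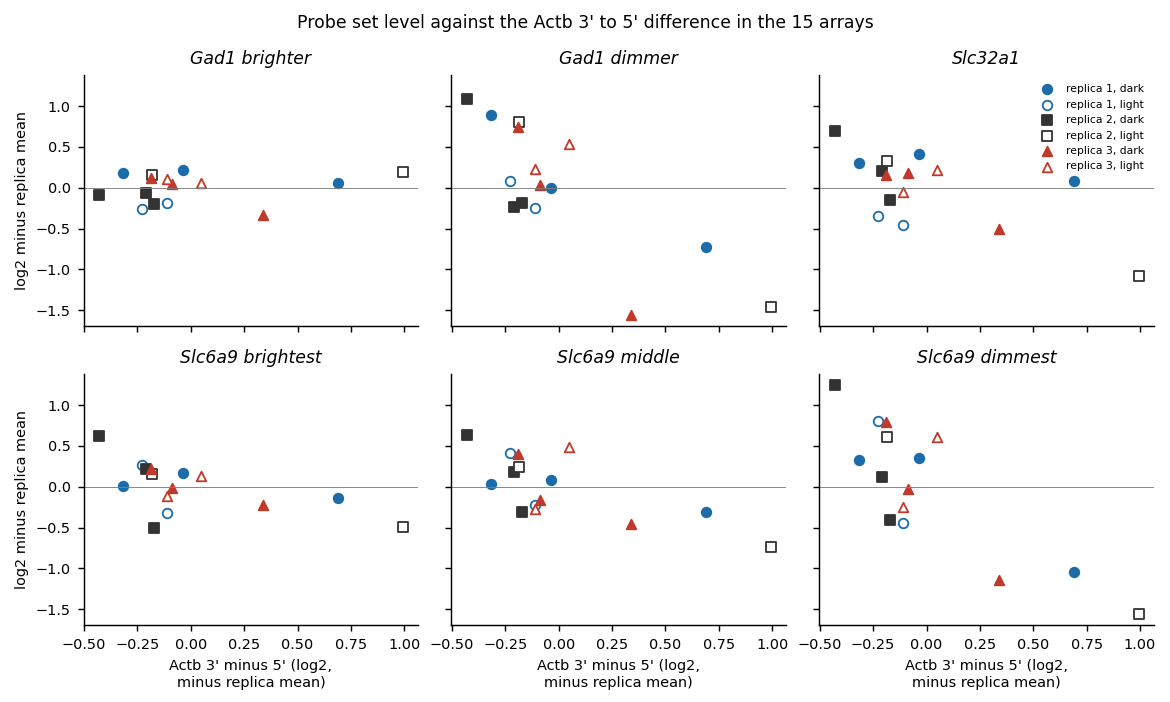
Replica-centred log2 value (vertical axes) against the replica-centred *Actb* difference, the 3′ end minus the 5′ end in log2 units (horizontal axes), for the *Gad1*, *Slc32a1* and *Slc6a9* probe sets, with 1 symbol per array, filled for darkness and open for light. The dimmer *Gad1* (r = -0.80) and dimmest *Slc6a9* (r = -0.83) points fall toward the right, and those of the brighter *Gad1* probe set (r = 0.17) do not.

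The order of the condition means differed between the groups of genes. 6 ZT dark was highest for 8 probe sets, namely both of *Gad1*, 2 of *Slc6a9* and those of *Gad2*, *Slc32a1*, *Slc18a3* and *Calb2*. Probe sets of the same gene are not separate observations, and the share of all probe sets highest in 6 ZT dark was not determined. 0 ZT dark was highest for the 3 peptides and *Chat*, and 6 ZT light for the middle *Slc6a9* probe set. 3 ZT light was lowest for 5 probe sets and 6 ZT light for 4. For 8 of the 13, all 4 pairs of neighbours in this order lay within the spread of the replica-centred values, and the dimmer *Gad1* probe set had the fewest such pairs, 2 of 4.

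The genes most like the 3 probe sets of widest range were sought over all probe sets with 1 symbol, by r of the replica-centred values over the 15 arrays. For the dimmer *Gad1* probe set they were *Usp11* (r = 0.98), *Scd2* (0.97) and *Cap2* (0.97), which encode a deubiquitinating enzyme, a fatty acid desaturase and an actin-binding protein. For the dimmest *Slc6a9* probe set they were *Lrrc1* (0.95), *Smg5* (0.95) and again *Usp11* (0.95). These 3 were dim, above 35.2%, 27.4% and 38.2% of the probe sets. For *Slc32a1* they were *Asic2*, an acid-sensing ion channel (0.96), *Tmem200c* (0.95) and *Susd4* (0.94). The dimmer *Gad1* and dimmest *Slc6a9* probe sets correlated with each other at r = 0.90, above the 0.31 between the *Gad1* probe sets. Both also moved with the *Actb* difference. The genes named here have the highest of many correlations over 15 arrays, and whether they share regulation with the members was not tested.

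Genes that act with these transmitters were followed in 5 lists, with the brightest probe set for each gene, and 78 of 91 were measured. None passed an adjusted p under 0.05 at either hour of light. At 3 ZT, 1 was higher and 4 were lower in light at an unadjusted p under 0.05, which is 6.41% of them, and at 6 ZT 1 was higher and 6 were lower, which is 8.97%. Both shares were near those of all probe sets. At 6 ZT 26 were higher and 52 lower, with a median of -0.06, against -0.01 over all probe sets.

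Receptors and synaptic genes of acetylcholine made up the most one-sided of these 5 lists at 6 ZT, with 13 of 14 lower in light. Their median was -0.12, against -0.01 over all probe sets, whose share lower in light was not determined. At 3 ZT 11 of 14 were higher with a median of 0.04. Only 4 of 14 of the list were above the median level of the array. Of the nicotinic receptor subunits, *Chrna4* was at -0.26 (unadjusted p = 0.00394, adjusted p = 0.508, limma) and *Chrna3* at -0.50 (unadjusted p = 0.0579), each lower in 3 of 3 replicas. The muscarinic receptor genes *Chrm4* and *Chrm5* were at -0.24 (unadjusted p = 0.0339, limma) and -0.22 (unadjusted p = 0.0489, limma). *Chrm4* was lower in 3 of 3 replicas, while *Chrm5* in replica 1 was at 8.07 in light against 8.05 in darkness. *Chrna4*, at 6.53 to 7.59 in the 6 ZT arrays, and *Chrm4*, at 6.58 to 7.14, lay below the medians of the arrays. At 6 ZT in darkness 13 of 14 of the list were above 0 ZT dark, and light and darkness at 6 ZT share the 6 ZT dark arrays in these counts.

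**Figure D5:**
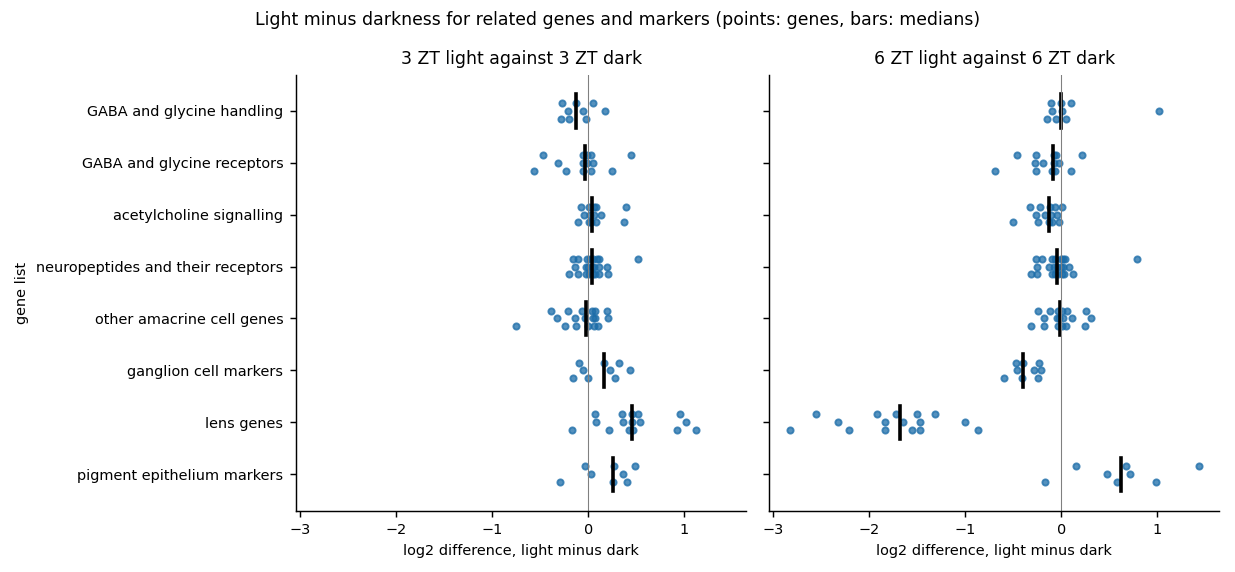
Log2 difference between light and darkness at 3 ZT (left) and 6 ZT (right) on the horizontal axes for genes of the 5 related lists and of 3 marker lists (rows), with 1 point per gene and a bar at the median. At 6 ZT the acetylcholine genes lie mostly below 0 (median -0.12), the ganglion cell markers all below 0 (median -0.39) and the lens genes furthest below it (median -1.68).

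Of the peptides and their receptors, *Vip* had the lowest unadjusted p over both light comparisons. It encodes the vasoactive intestinal peptide of a further amacrine cell subtype. It is named for that p-value, a choice that favours genes whose replicas agree. It was 11.76, 11.92 and 10.82 in 3 ZT dark and 12.07, 12.27 and 11.72 in 3 ZT light. At 6 ZT it was 11.36, 11.57 and 11.04 in darkness and 12.01, 12.58 and 11.73 in light. Light was thus higher in each of the 6 pairs, and the groups overlapped at 3 ZT but not at 6 ZT. The differences were 0.52 (SE 0.16, unadjusted p = 0.0094, adjusted p = 0.895, limma) and 0.79 (SE 0.16, unadjusted p = 6.06e-04, adjusted p = 0.440, limma), so that it did not pass over the array. The receptor genes *Sstr2* for somatostatin and *Npy5r* for neuropeptide Y were both at -0.25 at 6 ZT (unadjusted p = 0.0323 and 0.0442, limma), lower in 3 of 3 replicas.

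Of the GABA and glycine receptors, *Gabrr3* was at -0.57 at 3 ZT (unadjusted p = 0.0254, limma) and *Gabbr2* at -0.69 at 6 ZT (unadjusted p = 0.0324, limma). 12 of 14 of this list were lower in light at 6 ZT, with a median of -0.09, against -0.01 over all probe sets. In the list of GABA and glycine handling, 7 of 9 were lower at 3 ZT, with a median of -0.12, and 4 of 9 at 6 ZT, with a median of 0.00. Its mean replica-centred level in 3 ZT light was -0.35 in replica 2, the array with the largest *Actb* difference, against -0.04 and -0.10 in replicas 1 and 3. Among the genes lower at 3 ZT was *Glul*, the glutamine synthetase of Müller glia, at -0.21 (unadjusted p = 0.042, limma). Of the other amacrine cell genes, 8 of 18 were higher and 10 lower in light at 3 ZT, with a median of -0.02, and 9 were higher and 9 lower at 6 ZT. In this list the transcription factor gene *Isl1*, which starburst and ON bipolar cells use, was at -0.75 at 3 ZT (unadjusted p = 0.00741, limma) and calbindin, *Calb1*, at -0.24 (unadjusted p = 0.0185, limma).

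Markers of other tissue moved with the 6 ZT comparisons, and lens genes with those at 3 ZT too. The values are on a log scale without a true 0, so that no marker can be called absent. In light against darkness at 6 ZT, lens genes were lower in 16 of 16 (median -1.68), and their mean replica-centred level ran from 0.63 to 1.40 in 6 ZT dark and from -2.09 to 0.54 in 6 ZT light. Pigment epithelium markers were higher in 7 of 8 (median 0.62), with -0.64 to -0.05 in darkness and -0.03 to 0.55 in light. Ganglion cell markers were lower in 9 of 9 (median -0.39, none at an unadjusted p under 0.05), with -0.06 to 0.41 in darkness and -0.45 to -0.14 in light. From 0 to 6 ZT in darkness lens genes were higher in 16 of 16 (median 1.09), and from 0 to 3 ZT in darkness lower in 13 of 16 (median -0.47). In light against darkness at 3 ZT they were higher in 15 of 16 (median 0.46). Their mean levels were then -1.15 to 0.14 in darkness and -1.27 to 0.83 in light. At 3 ZT, Müller glia markers were lower in light in 8 of 8 (median -0.22) and bipolar cell markers in 4 of 5 (median -0.56), with mean levels of -0.51 to -0.09 and -0.53 to -0.19 in 3 ZT light. The lowest of both was replica 2, the array with the largest *Actb* difference, and for the Müller glia markers the other arrays of 3 ZT light were at -0.12 and -0.09. The part of these tissues and cells in the 6 ZT values of *Slc18a3*, *Vip*, *Gad1* and *Slc6a9* and in the 3 ZT values of *Slc32a1* and *Isl1* was not tested.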

How the data were processed

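Retinal RNA was measured on 15 Affymetrix rat arrays, and the log2 values were used as the authors deposited them, after they had summarised each scan by the Robust Multi-array Average. Software versions and the makeup of the normalization set are not given in the sources used here. Each later or light condition was compared with the 0 ZT dark control, light was compared with darkness within 3 ZT and within 6 ZT, and these light effects were compared with each other. All used limma 3.58.1 (R 4.3.3) on 31042 probe sets without the 57 controls, with condition and replica number as terms, and Benjamini-Hochberg adjustment over all of them at 0.05. The methods take changes within a replica number, and deviations of arrays of the same number correlated at 0.24 to 0.80 in 30 pairs, against -0.54 to 0.23 for different numbers. The labels do not say that replicas are separate animals, so that p-values reflect the spread among the 15 samples alone, part of which may be technical, and precision is limited by the number of arrays. Correlations used permutation tests with 100000 resamples (scipy 1.17.1). The replica-centred values were shuffled over all 15 arrays and not within a replica number, so that these p-values may be too small. Tested on simulated data for 3 ZT light and 0 ZT dark, the fit found 77 of 100 true differences of 1 log2 unit and 99 of 100 of 2, and 11 of its 187 calls were false. The simulated noise was independent between probe sets and held no variation shared across an array, so that these shares need not hold for the real arrays.

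The members, the gene lists and the tests were chosen with earlier results of these data known. Every member probe set is named. Genes named from a related list are among the 4 of that list with the lowest unadjusted p over both light comparisons, and the 3 genes most like each of the 3 members of widest range are named too. Promoter sequences and coordinates are those of RefSeq, assembly GRCr8. Alternatives were no replicate block, normalization by quantiles or by cyclic loess, a filter that drops probe sets below the 40th percentile of mean signal, weights for array quality (statmod 1.5.0), a fit restricted to the arrays of both conditions, ratios of 1.5 and 0.67 or to the mean of the controls, and each array left out. A fit without the 2 arrays of largest *Actb* difference was added after the data were seen. Figures were drawn with matplotlib 3.10.9.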

Additional observations from a re-analysis of the deposited data

How the results depend on the processing

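The count of the 13 probe sets at an adjusted p under 0.05 was 0 in all 7 comparisons under every alternative, and the counts by unadjusted p at the same threshold were small and moved. Without the replicate block, which pairs arrays of a number, they went from 1 to 0 in 6 ZT light against 6 ZT dark and in 3 and 6 ZT light against 0 ZT dark, and from 3 to 0 in 6 ZT dark against 0 ZT dark. The ratio rule in 6 ZT dark went from 2 to 0 with ratios to the mean of the controls, which do not pair arrays of a number. With only the conditions compared in the fit, the counts were 2 in 6 ZT light against 6 ZT dark, 3 in 6 ZT light, 5 in 6 ZT dark and 1 in 3 ZT dark against 0 ZT dark, where 8.54%, 5.89%, 11.7% and 2.78% of all probe sets were. Array quality weights gave 4 in 6 ZT light and 1 in 3 ZT dark against 0 ZT dark, where 20.6% and 3.67% of all were. With them 676 of all probe sets passed the adjusted threshold between 6 ZT light and 0 ZT dark and 2311 between 6 ZT light and 6 ZT dark, where 0 passed without weights. In that fit 6 ZT light replica 3 had a weight of 7.45, against 0.488 and 0.464 for replicas 1 and 2. The 6 ZT light values of that fit thus rest mostly on 1 array. In 3 ZT light against 0 ZT dark, quantile and cyclic loess normalization gave 0, as did a fit without the 2 arrays of largest *Actb* difference, chosen after seeing the data. With 1 array left out at a time, the counts ran from 0 to 1 in 3 ZT light against 3 ZT dark, 0 to 2 in 6 ZT light against 6 ZT dark, 0 to 2 in 3 ZT light, 0 to 4 in 6 ZT light, 0 to 1 in 3 ZT dark and 1 to 4 in 6 ZT dark against 0 ZT dark, and 0 to 2 for the difference of the light effects. Over all probe sets the shares ran, in the same order, from 3.03% to 10.0%, 4.41% to 14.0%, 4.41% to 12.7%, 3.60% to 9.43%, 1.06% to 3.36%, 4.56% to 12.9% and 3.62% to 10.1%. Without the block they were 0.113% to 1.26%. The lowest count in 6 ZT dark came without 0 ZT dark replica 1 and the highest in 6 ZT light without 0 ZT dark replica 2. The cause of these moves was not tested.

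The 6 single differences at an unadjusted p under 0.05 kept their sign under each alternative run, *Slc18a3* at 6 ZT between -0.81 and -0.36 and the dimmer *Gad1* probe set in 6 ZT dark between 0.96 and 1.43. *Slc32a1* in 3 ZT light ran from -0.99 to -0.34 and was at an unadjusted p under 0.05 in 9 of 22 settings. *Gad2* has no value with dim probe sets left out, since it is among them.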
